A study of Homo sapiens with 2 samples.

Results

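The genes examined here encode the enzymes and carriers that take up glucose, split it into pyruvate and lactate, rebuild it and route it through the pentose phosphate pathway. They were the 35 rows of the deposited TPM tables whose gene name was on a list of these genes, out of 58174 genes. The comparison asked how their transcripts differed when growth differentiation factor 1 (GDF1), a secreted ligand of the TGF-β superfamily, was overexpressed. It also asked whether the isoenzymes typical of liver behaved like the other forms. PLC-8024 is a hepatocellular carcinoma (HCC) cell line. Cells with a control vector (PLC-8024-CTR) and cells with a lentiviral GDF1 construct (PLC-8024-GDF1), the latter stably transduced and kept by puromycin selection, were each sequenced as 1 library of poly(A) RNA from bulk cells, named here the control and the GDF1 library. Per the methods, HCC cells were grown in high-glucose medium with serum. No untransduced cells and no second transduced culture were analysed here, so the genotype, the transduction and the culture dish cannot be told apart. TPM is a transcript abundance scaled to transcript length and to a fixed library total. It can be compared between genes, but it holds no depth, so no counting error is given, and with a single library on each side no difference has a replicate error or a test.

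Glycolysis begins with glucose entry through carriers of the SLC2A (GLUT) family and its phosphorylation by hexokinases. It passes through phosphofructokinase, the main point of control, and ends with pyruvate, which lactate dehydrogenase turns into lactate or the mitochondria burn. Hepatocytes differ from most cells in using a low-affinity carrier (SLC2A2) and the liver form of pyruvate kinase (PKLR), and in making glucose through PCK1, FBP1 and G6PC, whereas liver cancers commonly use the ubiquitous forms. The pentose phosphate pathway branches off at glucose phosphate and supplies NADPH and ribose.

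Under its own name, GDF1 was at 2.1 TPM in the control and at 4.64 TPM in the GDF1 library (log2 change 0.87). CERS1, whose annotated exons contain the GDF1 coding sequence, went from 13.3 to 9612 TPM (log2 change 9.39), so the higher signal at this locus was listed under CERS1. All 8 liver cell markers examined were expressed and 4 fell past 2-fold, beside 9.61% of all genes with at least 1 TPM. These were ALB, APOA1, TTR and AFP, the last of which also marks liver progenitors. With the trend of the change with transcript GC content removed, ALB (-0.78) no longer passed, whereas APOA1, TTR and AFP still did. TF alone among the 8 was higher in the GDF1 library, at 1318 and 1434 TPM (0.12). The fibrinogen chain FGB was at 1991 and 1517 TPM, whereas albumin (ALB) was at only 15.0 and 6.07 TPM, low for a liver cell. The 7 markers of other cells summed to 56.5 TPM in the control and 36.3 TPM in the GDF1 library, nearly all from PECAM1 (23.2 and 22.2 TPM) and CD68 (33.1 and 13.2 TPM), and PTPRC, COL1A2 and VWF were listed at 0 in both. Both libraries came from the same cell line, and in bulk RNA fewer cells expressing a gene and less RNA per cell cannot be told apart.

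Each change is the log2(TPM + 1) value in the GDF1 library minus that in the control library, which makes the change of weakly expressed genes smaller. "Rose" and "fell" are used for changes past 2-fold on this scale, in genes that reached 1 TPM in at least 1 library, called expressed here. By this measure 9 genes fell: the carriers SLC2A1, SLC2A2 and SLC2A3, the lower glycolytic enzymes PGK1, PGAM1 and ENO2, lactate dehydrogenase A (LDHA), the kinase PDK1 and the mitochondrial gluconeogenic enzyme PCK2. No gene of the 35 rose. The 9 made up 28.1% of the 32 genes with at least 1 TPM, whereas 9.61% of all 14929 such genes fell and 4.82% rose. HK2, PFKFB1 and FBP1 stayed under 1 TPM in both libraries.

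Over the 32 expressed genes the median log2 change was -0.62, against -0.20 over all genes, and single values ran from -2.07 to 0.51, with 23 below 0. Because the median of all genes lay below 0, TPM in the GDF1 library was also rescaled so that the median log2 ratio over genes with at least 5 TPM was 0. SLC2A1, SLC2A2, PGK1, LDHA and PDK1 then still fell, 15.6% of the genes against 6.75% of all genes. SLC2A3 (-0.92), PGAM1 (-0.92), ENO2 (-0.99) and PCK2 (-0.90) did not pass 2-fold on the rescaled values. Among genes with at least 5 TPM, 7 of 28 fell (25.0%) and 0 rose, beside 10.8% and 4.89% of 9632 genes. SLC2A2 and PDK1 did not reach this minimum.

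**Figure D1:**
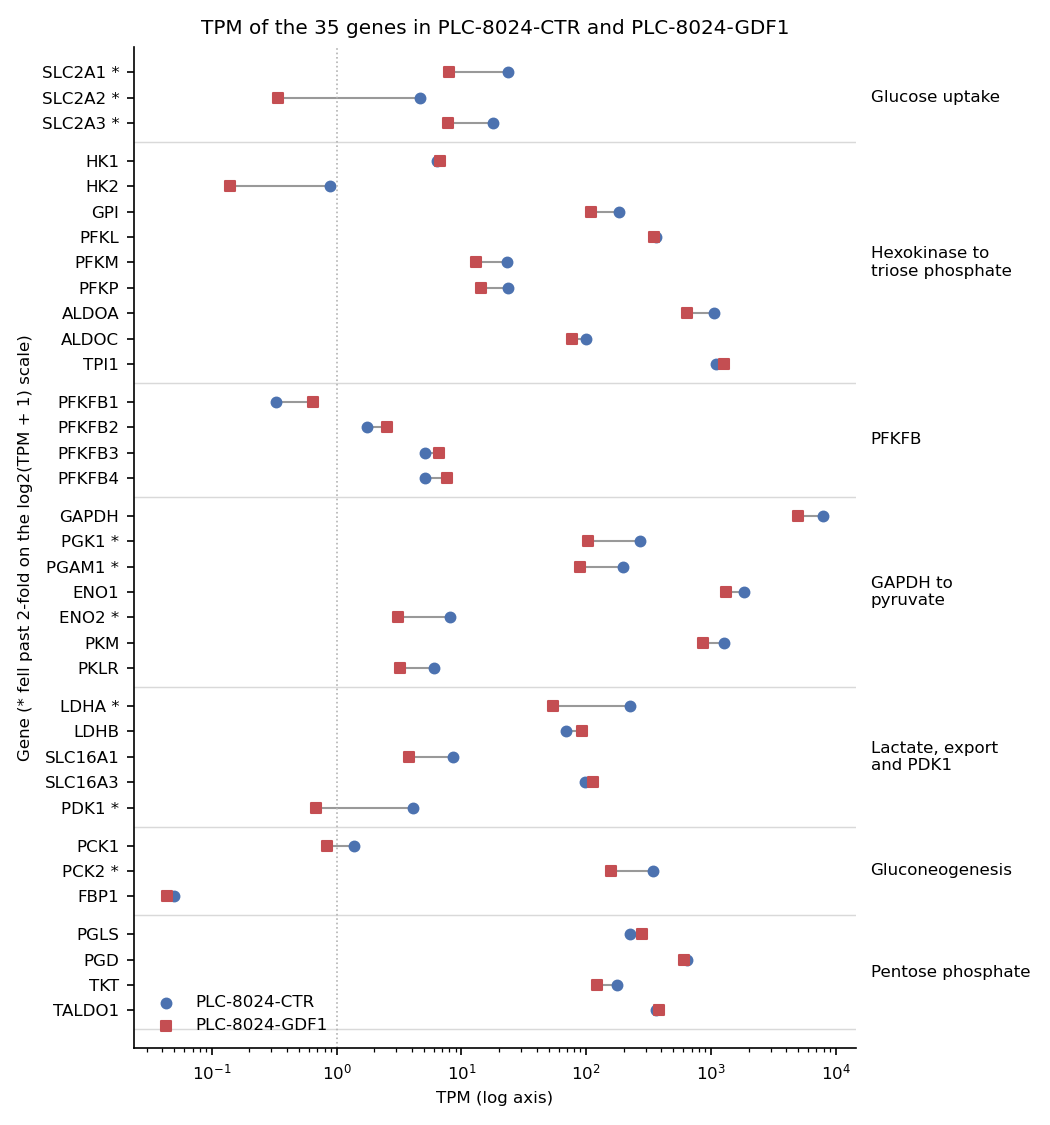
TPM of the 35 genes (log axis) in the control library (circles) and the GDF1 library (squares), grouped by their place in the pathway; the dotted line marks 1 TPM and asterisks mark the 9 genes that fell past 2-fold. All 3 carriers and all 7 genes from GAPDH to pyruvate kinase lie further left in the GDF1 library, whereas the PFKFB genes lie further right and the pentose phosphate genes are mixed.

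The 250 bases upstream of each gene's start site were read from hg19 and searched on both strands for ACGTG, a core that hypoxia-inducible factors bind. The other form of this core, GCGTG, was not searched and is not marked. The search included CACGTG, the E-box bound by MYC and by the carbohydrate-sensing MLX proteins, which holds ACGTG on each strand and was counted as 1 place. The windows of PGK1, LDHA and PGAM1 are printed because, after PCK2, they were the most abundant genes that fell, and that of LDHB because it is the sister of LDHA and did not. The window of PCK2 held no match and is not printed because 234 of its bases belong to exons of another PCK2 transcript. They are written 5′ to 3′ on the strand of the gene, with the matches in capitals, and bases that belong to an exon of another transcript of the gene were left out.
LDHA, chr11:18415860-18416106, plus strand: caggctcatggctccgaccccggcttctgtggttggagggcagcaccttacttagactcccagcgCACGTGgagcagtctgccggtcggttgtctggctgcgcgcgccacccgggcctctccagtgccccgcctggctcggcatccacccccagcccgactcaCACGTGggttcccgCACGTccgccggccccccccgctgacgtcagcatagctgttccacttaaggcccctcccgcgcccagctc
PGK1, chrX:77359495-77359744, plus strand: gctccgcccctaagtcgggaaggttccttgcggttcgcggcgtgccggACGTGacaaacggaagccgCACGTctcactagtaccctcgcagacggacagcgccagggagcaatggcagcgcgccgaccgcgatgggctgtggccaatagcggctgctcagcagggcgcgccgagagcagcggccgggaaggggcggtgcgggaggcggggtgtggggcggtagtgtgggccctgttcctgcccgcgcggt
PGAM1, chr10:99185698-99185947, plus strand: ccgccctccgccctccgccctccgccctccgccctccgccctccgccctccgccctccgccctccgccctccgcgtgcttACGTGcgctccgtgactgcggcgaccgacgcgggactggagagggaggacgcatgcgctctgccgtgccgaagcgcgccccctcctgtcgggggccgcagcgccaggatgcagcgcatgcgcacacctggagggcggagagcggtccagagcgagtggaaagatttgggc
LDHB, chr12:21810906-21811026, minus strand: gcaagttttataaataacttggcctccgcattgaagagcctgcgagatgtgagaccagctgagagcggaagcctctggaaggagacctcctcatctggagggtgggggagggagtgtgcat

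The LDHA window held 3 places with the motif, 2 of them as CACGTG, PGK1 held 2, PGAM1 held 1, and LDHB held none in its whole window. Among the 9 genes that fell, 5 had at least 1 match (55.6%), namely these 3 enzymes, ENO2 and PDK1, whereas the 3 carriers and PCK2 had none. Of the 23 expressed genes that did not pass 2-fold, 8 had a match (34.8%). The motif stood in 20.5% of all 19534 promoters and in 23.7% of the promoters of expressed genes. Over all 35 genes the share was 40.0%. At least 2 places were found in LDHA, PGK1 and PDK1 among the genes that fell (33.3%). The share was 8.7% of the expressed genes of the 35 that did not pass, 3.91% of the promoters of expressed genes and 3.14% of all promoters. GAPDH, ALDOA and PGD, which stayed within 2-fold, had 1 place each, and ALDOC and the lactate exporter SLC16A3 had 2 each. HK2, which was not expressed at 1 TPM, also had 2. A match describes letters in a short window, and factor binding was not measured.

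All 3 glucose carriers fell. SLC2A1 (GLUT1), the ubiquitous carrier on the minus strand of chromosome 1 (43391024 to 43424564, hg19), fell from 23.5 to 7.96 TPM (log2 change -1.45). SLC2A3 (GLUT3), a high-affinity carrier on chromosome 12 (8071826 to 8171603), fell from 18.0 to 7.84 TPM (-1.10). SLC2A2 (GLUT2), the carrier of hepatocytes on chromosome 3 (170714136 to 170744532), fell from 4.64 to 0.34 TPM (-2.07), a plain TPM ratio of 13.7. It was the largest decrease of the 35 genes on both of these scales, whereas with the trend of the change with transcript GC content removed (the GC trend) LDHA (-1.66) lay slightly below SLC2A2 (-1.64). The value of SLC2A2 in the GDF1 library is under 1 TPM, so the ratio of 13.7 has no stated precision. The carriers together went from 46.2 to 16.1 TPM, and the pair SLC2A1 and SLC2A3 became nearly equal, with a ratio of 1.31 in the control and 1.01 in the GDF1 library. SLC2A14, a near copy of SLC2A3 that could share its reads, was at 0.84 and 0.20 TPM.

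From hexokinase to the triose phosphates, no gene passed 2-fold, with -0.53 as the median log2 change over the 8 expressed genes. HK1, the ubiquitous hexokinase, was at 6.37 and 6.77 TPM (0.08). HK2, the form induced in many tumours, was at 0.89 and 0.14 TPM, so it was weakly expressed in both. HKDC1, which lies outside the 35 genes and is named because its level was seen to exceed theirs, was the most abundant hexokinase gene at 27.8 and 15.1 TPM, that is 79.3% and 68.6% of the summed hexokinase TPM. The share of HK1 was 18.2% in the control and 30.8% in the GDF1 library.

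Glucose phosphate isomerase (GPI) was listed at 182.8 and 108.6 TPM (-0.75). Liver phosphofructokinase (PFKL) stood almost level at 363.7 and 348.1 TPM (-0.06, and above 0 on the rescaled values). The muscle form PFKM was at 23.2 and 13.2 TPM (-0.77) and the platelet form PFKP at 23.8 and 14.3 TPM (-0.69). The subunit that dominated the step was therefore also the one with the smallest change. ALDOA, the ubiquitous aldolase, was at 1054 and 640.4 TPM (-0.72), and ALDOC, the brain form, at 99.5 and 77.1 TPM (-0.36). Triose phosphate isomerase (TPI1), the next enzyme, was higher in the GDF1 library at 1265 than at 1092 TPM (0.21). The ratio of TPI1 to ALDOA was thus 1.04 in one library and 1.98 in the other.

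The PFKFB enzymes make and remove the sugar bisphosphate that switches phosphofructokinase on. The 3 expressed ones all lay above 0, with a median log2 change of 0.37, and none passed 2-fold. PFKFB3, the form with the strongest kinase activity, was at 5.09 and 6.67 TPM (0.33), and PFKFB4 at 5.06 and 7.62 TPM (0.51). PFKFB2, the heart form, was at 1.75 and 2.55 TPM (0.37), and the liver form PFKFB1 at 0.32 and 0.65 TPM. Their summed level was 12.2 and 17.5 TPM, small beside the phosphofructokinases they regulate.

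The second stage, from GAPDH to pyruvate, was lower in the GDF1 library at each of its 7 genes, also on the rescaled values. PGK1, the first enzyme to yield ATP (chromosome X, 77166236 to 77384792, plus strand), fell from 271.0 to 103.5 TPM (-1.38). PGAM1, the phosphoglycerate mutase (chromosome 10, 99185948 to 99193201, plus strand), fell from 195.6 to 89.4 TPM (-1.12). ENO2, the neuronal enolase (chromosome 12, 7022909 to 7032861, plus strand), fell from 8.16 to 3.12 TPM (-1.15). Of these, PGK1 alone passed 2-fold after rescaling.

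The most abundant enzymes of the stage moved less. GAPDH, which is often used as a reference transcript, was at 7948 and 4977 TPM (-0.68), and its rank among all genes was 7 and 23. ENO1, the main enolase, was at 1847 and 1323 TPM (-0.48), and PKM, the pyruvate kinase of most cells, at 1270 and 860.6 TPM (-0.56). PKLR was at 6.04 and 3.20 TPM (-0.75). The minor enolase of the 35 genes was thus the one past 2-fold, and ENO1 exceeded ENO2 by a factor of 226.3 in the control and 424.4 in the GDF1 library. ENO3, the muscle enolase, which is not among the 35 and was chosen after its values were seen, was at 37.1 and 66.4 TPM (0.82). Gene-level TPM does not separate the splice forms of PKM. The stage summed to 11546 TPM (1.15% of all TPM) and 7360 TPM (0.736%).

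The 2 lactate dehydrogenase genes changed order between the libraries. LDHA, which favours lactate formation (chromosome 11, 18416107 to 18429972, plus strand), fell from 224.6 to 54.1 TPM (-2.03), and its rank went from 632 to 2163. LDHB, which favours the use of lactate (chromosome 12, 21788276 to 21910791, minus strand), was at 68.5 and 93.2 TPM (0.44), and its rank went from 1892 to 1398. LDHA outnumbered LDHB 3.28 to 1 in the control library and stood at 0.580 to 1 in the GDF1 library, and its share of the pair was 76.6% and 36.7%. As a ratio within a library, this does not depend on how the libraries were scaled.

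Of the lactate carriers, the minor one was lower and the major one slightly higher in the GDF1 library. SLC16A1 (MCT1), which carries lactate in both directions, was at 8.52 and 3.82 TPM (-0.98), just within 2-fold, and passed it with the plain TPM ratio (-1.16). SLC16A3 (MCT4), the exporter of glycolytic cells, was at 97.6 and 113.0 TPM (0.21) and remained the main carrier of the pair. PDK1, the kinase that shuts pyruvate out of the citrate cycle (chromosome 2, 173420101 to 173473397, plus strand), fell from 4.09 to 0.69 TPM (-1.59).

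Of the 3 gluconeogenic genes among the 35, PCK1 and FBP1 were weak and PCK2 was abundant. PCK1, the cytosolic enzyme of liver, was at 1.37 and 0.84 TPM (-0.37), and FBP1 at 0.050 and 0.044 TPM. PCK2, the mitochondrial enzyme (chromosome 14, 24563262 to 24579807, plus strand), fell from 342.9 to 159.3 TPM (-1.10), or -0.90 after rescaling. The step from oxaloacetate was thus listed almost wholly under PCK2, and FBP1, needed to rebuild glucose, was near 0.

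The pentose phosphate genes showed no common direction and none passed 2-fold. PGLS, the lactonase, was at 224.8 and 280.6 TPM (0.32), and PGD, the second NADPH-producing dehydrogenase, at 639.1 and 605.6 TPM (-0.08, and above 0 after rescaling). In the branch that returns sugars to glycolysis, transketolase (TKT) was at 176.0 and 121.9 TPM (-0.53) and TALDO1 at 365.4 and 383.0 TPM (0.07). The 4 genes summed to 1405 and 1391 TPM, with a median log2 change of -0.01. Beside them, the 35 genes as a whole went from 16604 to 11683 TPM (a difference of -29.6%), and from 8656 to 6706 TPM without GAPDH (-22.5%).

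The liver isoenzymes were then set beside their partners, the other forms of each step, as a share of the summed TPM. Not all partners are ubiquitous, since PFKM, PFKP and PFKFB2 are named above as muscle, platelet and heart forms. SLC2A2 was 10.1% of the SLC2A1, SLC2A2 and SLC2A3 sum in the control library and 2.11% in the GDF1 library. With the GC trend removed the latter was 4.21%, and over SLC2A1 alone as partner the shares were 16.5% and 4.10%, so the share was lower in the GDF1 library each time. The share in the GDF1 library rests on 0.34 TPM of SLC2A2. PFKL was 88.6% and 92.7% of its step, since PFKM and PFKP went from 47.0 to 27.5 TPM in sum. Carrier and kinase thus parted, with the liver form losing share at entry and gaining it at phosphofructokinase.

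At the other steps the liver form was a minor one in both libraries. PFKFB1 was 2.65% and 3.71% of the PFKFB sum, PKLR 0.473% and 0.370% of pyruvate kinase, and PCK1 0.399% and 0.524% of PEPCK. Among these 5 steps, PFKL was the sole liver form that exceeded its partners. Of the 6 liver types among the 35 genes (SLC2A2, PFKL, PFKFB1, PKLR, PCK1 and FBP1), 4 were expressed, 1 fell (25.0%) and their median log2 change was -0.56. Of the other 29 genes, 28 were expressed, 8 fell (28.6%) and the median was -0.62. With 4 liver genes and 1 library a side, a difference between the classes was not testable.

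**Figure D2:**
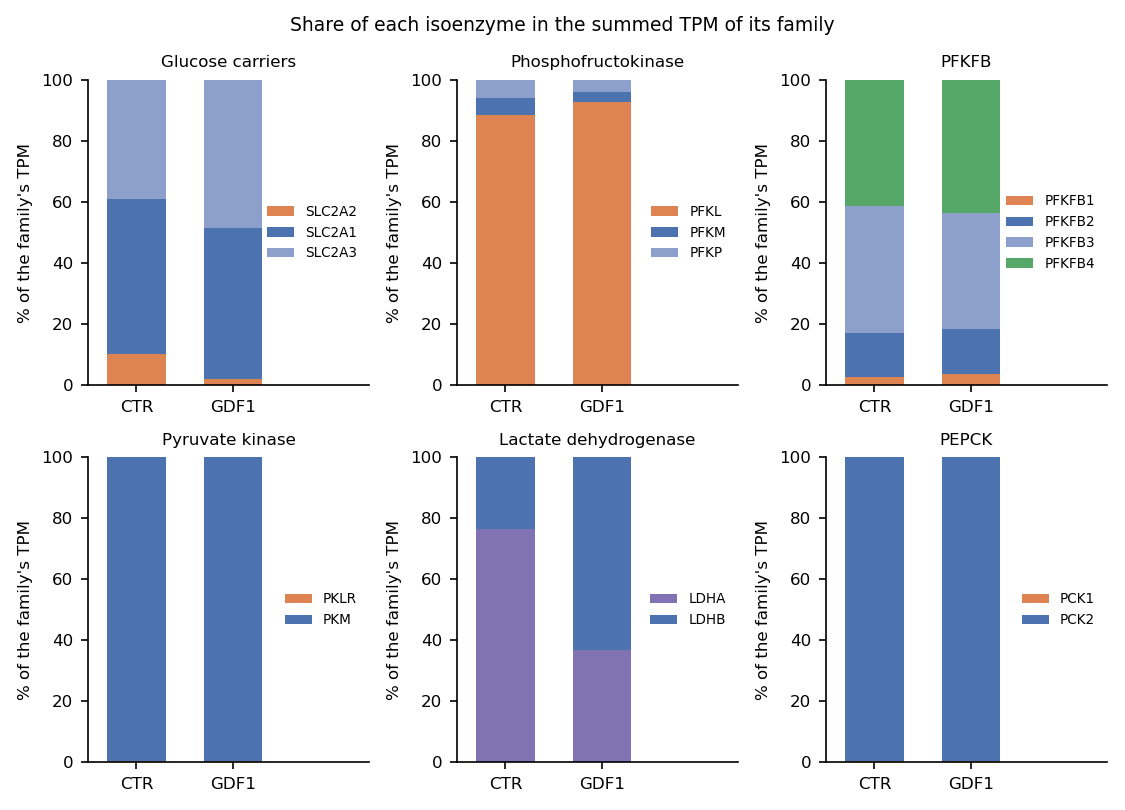
Share of each isoenzyme in the summed TPM of its family (%) in the control (CTR) and the GDF1 library, with liver types in orange. LDHA goes from 76.6% to 36.7% of its pair and SLC2A2 from 10.1% to 2.11% of the carriers, whereas PFKL stays near the top of its bar at 88.6% and 92.7%; PKLR and PCK1 are under 1% and too thin to be seen.

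Beyond the 35 genes, 52 further genes of glucose metabolism were listed, of which 35 were expressed. SLC37A4, which carries glucose 6-phosphate into the endoplasmic reticulum, rose from 21.0 to 52.4 TPM (1.28). It was the only one to do so (2.86%, beside 4.82% of all expressed genes). In all, 6 fell (17.1%, beside 9.61% of all expressed genes). G6PC, a phosphatase fed by SLC37A4 and the last step of hepatic glucose release, fell from 36.1 to 6.25 TPM (-2.36). The transporter and G6PC thus moved in opposite directions. The related phosphatase gene G6PC3, chosen after its values were seen, was more abundant and did not, at 186.1 and 253.0 TPM (0.44). The other 5 that fell were PGAM4, from 3.72 to 0.73 TPM, DLAT of the pyruvate dehydrogenase complex, from 10.3 to 3.35 TPM, its activating phosphatase PDP1, from 1.96 to 0.43 TPM, PGM2, from 5.71 to 1.37 TPM, and the urate and sugar carrier SLC2A9, from 16.3 to 5.19 TPM. PGAM4 is a near copy of PGAM1 and could share its reads. With the GC trend removed, DLAT (-0.98) and PDP1 (-0.66) no longer passed 2-fold. PDK1 was a minor one of the kinases that inhibit this complex. PDK2 was at 27.2 and 23.9 TPM and PDK3 at 14.7 and 9.81 TPM, both within 2-fold and chosen after their values were seen.

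Of 15 transcriptional controllers of these genes, 14 were expressed, none rose and 2 fell (14.3%, beside 9.61% of all expressed genes). HNF4A, a hepatocyte factor, fell from 11.4 to 5.15 TPM (-1.02), but with the GC trend removed (-0.91) it no longer passed 2-fold. HIF1A, the oxygen-sensitive activator of many glycolytic genes, was at 2.62 and 3.50 TPM (0.31), which says nothing of its protein. The changes were also set beside those of 2 neighbouring sets. Of 21 citrate cycle enzymes, 3 fell (14.3%, beside the same 9.61%), with a median of -0.69, and the difference from the 35 genes was not tested. Of 14 genes known to be induced by low oxygen and not part of glycolysis, 13 were expressed and none rose. Of these, 7 fell (53.8%, beside the same 9.61%), and the median was -1.27. Chosen after their values were seen, CA9 went from 89.4 to 10.7 TPM and VEGFA from 54.5 to 9.02 TPM. P4HA2 changed least, at 29.5 and 27.0 TPM (-0.12). Oxygen and cell density at harvest are not given in the sources used here. Whether they had a part in the lower LDHA, PGK1 and PDK1 was not tested and cannot be told apart from the genotype.

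**Figure D3:**
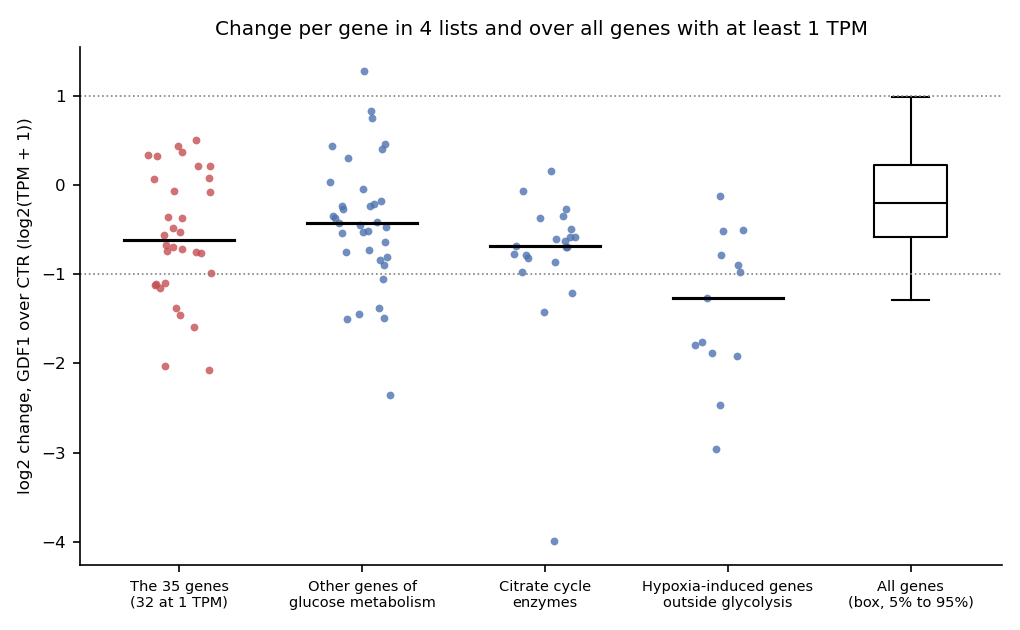
Log2 change per gene (GDF1 over control library, TPM + 1) in 4 gene lists, with the median as a bar, and over all genes with at least 1 TPM as a box of quartiles with whiskers from the 5% to the 95% point. Dotted lines mark 2-fold; the medians are -0.62 for the 35 genes, -0.42 for other genes of glucose metabolism, -0.69 for citrate cycle enzymes and -1.27 for hypoxia-induced genes, beside -0.20 for all genes.

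The change also moved with base composition across all genes, with lower values at low GC content. The genes that fell had a median transcript GC content of 45.8% (37.7% to 61.5%), the other expressed genes of the group 54.5%, and all genes 49.6%. SLC2A2, PDK1, LDHA and PGK1 were the 4 lowest in GC among those that fell, and PCK2 was the highest at 61.5%. With the trend subtracted, 7 of the 32 genes still passed 2-fold downwards, against 6.06% of all genes, and the median was -0.51, against -0.01 over all genes. SLC2A3 (-0.83) and PGAM1 (-0.97) no longer passed. LDHB (46.5%) and LDHA (41.8%) are both below the median of all genes and lay on opposite sides of the trend.

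Reads could be misplaced where annotated genes overlap. None of the 9 genes that fell shared exon bases with another expressed gene in the annotation. Of those that did not pass, GAPDH shares 422 bases with AC006064.4 on the opposite strand, at 199.2 and 231.3 TPM, PKLR shares 556 bases with HCN3 and SLC16A3 shares 482 with CSNK1D. Whether reads were counted by strand is not given in the sources used here. Pseudogenes named after a member held at most 0.776% of its TPM, and adding them changed no call.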

How the data were processed

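RNA-seq gave 1 library of each culture, PLC-8024-CTR (control vector) and PLC-8024-GDF1. Per the submitters' processing notes and the methods, the authors checked and trimmed reads with FastQC 0.11.2 and Trimmomatic 0.36, aligned them to hg19 with HISAT2 2.1.0 and quantified them with StringTie 1.3.3b; bedtools 2.26.0 is also listed. The deposited values are TPM per gene, summing to 999990 and 999995, and genes without signal are listed at 0.0001. The column is headed as a mean TPM, although each table belongs to 1 sample. The methods name a RefSeq annotation, whereas the tables hold Ensembl identifiers. Depth cannot be read from TPM, so precision is unknown.

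The 2 tables were joined on gene identifier. Fold changes used log2(TPM + 1) and a minimum of 1 TPM in either library, and a gene past 2-fold was counted as changed. No test was made. Positions, exons, transcript GC content and promoters (250 bases upstream of the canonical start) came from GENCODE v44 on GRCh37, which held 55726 of 58174 identifiers and all 35 genes. The GC trend was fitted by lowess with span 0.3. The alternatives were a pseudocount of 0.1, the plain TPM ratio, a minimum of 5 TPM or none, TPM of PLC-8024-GDF1 multiplied by 1.15, the GC trend removed, and pseudogene TPM added. The isoenzyme shares were also taken over the most abundant partner alone. Scripts ran under Python 3.11.15 with pandas 2.3.3, numpy 2.4.6, statsmodels 0.14.6 for the trend and matplotlib 3.10.9, and were tested on simulated data.

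The 35 genes and all gene lists were chosen with earlier results of these data known. Named were all 35 genes, GDF1 and CERS1, genes of 2 lists (52 further genes of glucose metabolism and 15 controllers) past 2-fold, and always G6PC and HIF1A. Some single-gene values of these lists are not reported here. Other genes named were markers or were chosen after their values were seen.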

Additional observations from a re-analysis of the deposited data

How the results depend on the processing

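Of the 9 genes that fell, 5 passed 2-fold with the TPM of PLC-8024-GDF1 rescaled, when the median change was -0.41, and 7 with the GC trend removed, when it was -0.51. Set against the median of all genes, the median of the expressed members stood at -0.42 as reported, -0.40 rescaled and -0.50 without the GC trend. A pseudocount of 0.1 and the plain TPM ratio added SLC16A1 for a count of 10. Pseudogenes changed no count. The share of SLC2A2 among the carriers in PLC-8024-GDF1 was 4.21% with the GC trend removed and 4.10% over the most abundant partner alone, in place of 2.11%, beside 10.1% and 16.5% in PLC-8024-CTR. No gene rose under any of the 7 alternatives. PFKL, PGD and FBP1, all near 0, changed sign on rescaling, and PGD and FBP1 with the GC trend removed. No paired analysis was possible because each group has 1 library. Depth is unknown, so values under 1 TPM have no stated precision. These were HK2, PFKFB1 and FBP1 in both libraries and SLC2A2, PDK1 and PCK1 in PLC-8024-GDF1.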
